A study of Mus musculus with 33 samples.

Results

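The genes described here were 150 mouse genes whose transcript level was much lower in surrounded nucleolus (SN) than in non-surrounded nucleolus (NSN) germinal vesicle oocytes of Nlrp5 +/+ mice. They were chosen from 8409 genes that had a mean of at least 10 CPM (read counts scaled to the same library total in each oocyte) over the +/+ oocytes, lay on an autosome and had a symbol not beginning with Zfp, Rpl, Rps, Psm or Kif. The 150 with the lowest log2 of the mean SN level over the mean NSN level, after 1 CPM was added to each mean, were taken, which is 1.78% of those genes and a small part of the 35321 genes in the table. The values of the 10 +/+ oocytes therefore chose the genes and are given only as a description. The +/- and -/- oocytes took no part in the choice.

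Growing oocytes transcribe actively while the chromatin around the nucleolus is still open. In the last part of growth the chromatin condenses into a ring around the nucleolus, transcription stops, and the cell then relies on the messenger RNA it has stored. Both kinds of oocyte are found side by side in the ovary of a young female.

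Single oocytes were taken from females of 3 weeks, their polyadenylated RNA was separated from their DNA, and the RNA was amplified and sequenced. There were 10 Nlrp5 +/+ oocytes (4 NSN, 6 SN), 16 Nlrp5 +/- oocytes (9 NSN, 7 SN) and 7 Nlrp5 -/- oocytes (4 NSN, 2 SN and oocyte 15, which has no stage). The mutant line carries a small frameshift deletion made with CRISPR/Cas9 in Nlrp5, which encodes a core protein of the subcortical maternal complex of the oocyte, and no hormone or other agent was given. The line was made on a C57BL6/Babr background. Litters supplied both the -/- and the +/- oocytes, whereas +/+ oocytes came mostly from the founder colony of the same strain. Genotype and litter therefore cannot be told apart where +/+ is one side of a comparison.

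The stage was not read from the nucleus. The study assigned it after sequencing from a published list of genes that differ between NSN and SN oocytes, and for +/- and -/- oocytes it was read here from the figures of the study. The text of the study and 1 of its captions give fewer +/- oocytes per stage than the 9 NSN and 7 SN read here. Of 60 published NSN markers among the 8409 genes, 24 were among the 150, and none of the 58 SN markers was. For these 24 a lower level in SN oocytes is partly a restatement of how the stage was assigned, so medians are given with and without them. The labels name no mouse, so all oocytes of a genotype and stage were treated as 1 sample. Runs of neighbouring oocyte numbers share an index sequence in the column names, and the labels do not say what a run stands for. In +/- oocytes, runs 45 to 48 and 53 to 56 held both stages, but 37 to 40 were all SN and 61 to 64 all NSN. Between these last runs stage and run cannot be told apart, and the part of this in the stage difference was not tested. No test was made, and each SD is the spread between cells only.

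The depth, as the sum of counts over all genes, ran from 4225037 to 15579217 between oocytes. Nlrp5 itself stood at 1295 to 3896 CPM in +/+ oocytes, 630 to 1736 CPM in +/- oocytes and 176 to 328 CPM in -/- oocytes, so all -/- oocytes were below all others, and +/- and +/+ oocytes overlapped. The oocyte genes Zp1, Zp2, Zp3, Gdf9, Bmp15, Dppa3 and Oosp1 were counted in all 33 oocytes, with medians between 1442 CPM (Oosp1) and 7485 CPM (Gdf9). A list of 16 granulosa cell markers summed to 78.7 to 173 CPM in every staged +/+ and +/- oocyte. It reached 215 CPM in -/- oocyte 7, 297 CPM in -/- oocyte 13, 516 CPM in -/- oocyte 14 and 1429 CPM in -/- oocyte 15, and the defining granulosa genes Inhbb, Amh, Foxl2 and Wt1 together gave 2.09, 6.86, 18.2 and 113 CPM there against 0 to 5.64 CPM in the 26 +/+ and +/- oocytes. All 4 were at 0 in 7 of those 26. Cyp19a1 and Nr5a2, with the highest medians of the 16 (53.2 and 33.8 CPM), were counted in all 33 oocytes. A list of 16 markers of theca, stroma, vessels or blood reached 348 CPM in oocyte 14, 390 CPM in +/- oocyte 61 and 910 CPM in oocyte 15.

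The set held regulators of transcription, chaperones, ubiquitin enzymes, RNA-binding proteins and metabolic enzymes, and no single function took a large share of it. In the table of RefSeq promoters of GRCm38.p6, the build of the deposited gene coordinates, 121 of the 150 genes matched by symbol, with 159 promoter windows that run from 250 bases before to 50 bases after a start of transcription. The windows of 4 genes are printed because these genes stood furthest apart between the stages. Klhl21 and Ugdh had the lowest log2 in +/+ oocytes among the genes, and C1d and Id3 were the lowest after Klhl21 in +/- oocytes. Sequences run 5′ to 3′ on the strand of the gene. The capitals mark exact matches, on either strand, to the motifs searched.
Klhl21 (GRCm38.p6, chr4:152008641-152008940, plus strand): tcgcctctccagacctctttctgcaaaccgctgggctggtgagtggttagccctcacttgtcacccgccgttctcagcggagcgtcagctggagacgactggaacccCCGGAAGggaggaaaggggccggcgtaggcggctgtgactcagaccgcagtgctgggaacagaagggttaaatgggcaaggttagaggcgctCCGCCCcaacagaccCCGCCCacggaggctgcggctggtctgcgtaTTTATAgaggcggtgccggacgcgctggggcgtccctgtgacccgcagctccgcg
Ugdh (GRCm38.p6, chr5:65435793-65436092, minus strand): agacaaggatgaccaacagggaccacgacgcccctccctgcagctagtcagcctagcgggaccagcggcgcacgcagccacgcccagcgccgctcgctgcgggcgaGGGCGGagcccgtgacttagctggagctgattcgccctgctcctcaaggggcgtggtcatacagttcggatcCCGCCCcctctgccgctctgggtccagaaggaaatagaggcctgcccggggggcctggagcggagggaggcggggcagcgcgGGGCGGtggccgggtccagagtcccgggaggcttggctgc
C1d (GRCm38.p6, chr11:17257438-17257737, plus strand): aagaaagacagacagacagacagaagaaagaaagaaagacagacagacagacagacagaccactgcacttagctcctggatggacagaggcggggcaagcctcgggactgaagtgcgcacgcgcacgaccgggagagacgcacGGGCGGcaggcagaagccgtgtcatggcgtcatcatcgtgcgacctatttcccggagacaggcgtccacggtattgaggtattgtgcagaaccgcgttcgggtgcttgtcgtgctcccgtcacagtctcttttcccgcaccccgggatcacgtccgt
Id3 (GRCm38.p6, chr4:136143572-136143871, plus strand): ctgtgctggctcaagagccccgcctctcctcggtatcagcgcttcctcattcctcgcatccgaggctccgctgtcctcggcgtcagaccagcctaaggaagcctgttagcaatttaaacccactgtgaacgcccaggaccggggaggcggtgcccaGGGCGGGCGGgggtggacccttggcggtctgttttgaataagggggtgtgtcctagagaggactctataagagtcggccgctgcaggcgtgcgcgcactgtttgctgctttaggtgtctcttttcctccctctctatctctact

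In the Klhl21 window the capitals mark an ETS site (CCGGAAG), GC boxes (GGGCGG), and the letters of a TATA box (TATAAA) read on the opposite strand. This last match begins at position -5 from the start of transcription. In the Ugdh, C1d and Id3 windows the capitals mark GC boxes, which in Id3 overlap each other. The GC box was in 69.2% of the 159 windows of the set and in 62.4% of the 8329 windows of the genes from which the set was chosen. The CCAAT box (CCAAT) was in 40.9% against 38.6%, the ETS site in 14.5% against 18.9%, the E-box (CACGTG) in 10.7% against 10.3% and the TATA box in 5.03% against 7.01%. The cyclic AMP response element (TGACGTCA) was in 5.66% against 3.25%, the NOBOX site (TAATTG) in 2.52% against 5.50%, the NRF1 site in 1.89% against 2.29% and the heat shock element in 1.26% against 0.588%. A match of letters does not show that a factor binds.

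In the +/+ oocytes that chose the set, the log2 of SN over NSN ran from -3.55 for Klhl21, an adaptor of a ubiquitin ligase that acts in cell division, to -1.44 for Rock2, a kinase of the cytoskeleton, which was the last gene taken. AI597479, just before it, was at -1.44, and Cmtm4 and Tnpo3, just outside, were at -1.44 and -1.43, so the border falls in an unbroken series of values. The median of the 150 was -1.74, against -0.03 over all 8409 genes, which is 0.299 of the NSN level. All SN oocytes were below all NSN oocytes for 133 of the 150, against 7.05% of the 8409. This share, that of genes lower by at least 2-fold (150 of 150, background 4.78%) and that of genes lower at all (150 of 150, background 53.9%) follow from the choice.

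The choice leaned on 1 NSN oocyte. Oocyte 79 was the highest of the 4 NSN +/+ oocytes for 106 of the 150 genes and for 25.7% of the 8409. Its summed level of the set was 10100 CPM, against 6399, 6933 and 5938 CPM in oocytes 70, 78 and 87. When the set was chosen again without oocyte 79, 113 of the 150 returned, against 127 to 137 when any other +/+ oocyte was left out.

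Genes of the set were expressed at a lower level than the others in NSN +/+ oocytes. Per kilobase of the longest transcript in GENCODE vM39, their median was 6.58 CPM, against 12.2 CPM for the 8409. That transcript had a median length of 5229 nt in the set and 4376 nt among the 8373 of the 8409 genes with a length. The median GC content of the transcript was 46.2% against 48.4%. The 150 genes lay on all 19 autosomes, with 18 on chromosome 11, 14 on chromosome 2 and 13 on chromosome 4. By share of the genes eligible on a chromosome, chromosome 13 was the highest with 12 members (3.47%), and chromosomes 1 and 6 were the lowest (0.723% and 0.716%).

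The whole set was lower in SN oocytes of both other genotypes. In +/- oocytes, all 150 genes had a lower mean in SN than in NSN oocytes, where 52.5% of the 8409 did. The median log2 was -1.10, against -0.02 over the 8409, so that the median gene of the set kept 0.465 of its NSN level. For 87 of the 150 the level was lower by at least 2-fold, against a background of 2.2%. For 26 of the 150 all 7 SN oocytes were below all 9 NSN oocytes, against a background of 0.928%. On leaving out any single oocyte, 70 of the 87 stayed at least 2-fold lower and all members but Hipk3 (0.12 without oocyte 48) stayed lower.
In -/- oocytes, all 150 were again lower in SN, against a background of 52.5%. The median log2 was -1.18, against -0.03 over the 8409. For 101 of the 150 the level was lower by at least 2-fold, against 3.95%, and both SN oocytes were below all 4 NSN oocytes for 107, against 9.98%. These calls rested more on single oocytes, since 47 of the 101 stayed at least 2-fold lower on leaving out any 1 oocyte, 36 were lost without SN oocyte 7 and 26 without NSN oocyte 14. The sum of the 16 granulosa markers was raised in both oocytes. The sum of the 4 defining ones was raised in oocyte 14 (18.2 CPM) and lay within the range of the +/+ and +/- oocytes in oocyte 7 (2.09 CPM). On every such omission 145 of the 150 stayed lower. Leaving out 1 of the 2 SN -/- oocytes leaves a lone oocyte and moves values either way, with a median of -0.95 without oocyte 7 and -1.53 without oocyte 31. Mitochondrial genes took 0.0667% and 0.104% of the counts in these 2 oocytes, against 0.152% to 0.332% in NSN -/- and 0.243% to 0.420% in SN +/- oocytes, and the part of this in the stage difference was not tested. Without the 24 staging markers, the median was -1.02 in +/- and -1.14 in -/- oocytes. It was -1.41 and -1.30 for the 24 alone. Both genotypes had a smaller median difference than the +/+ oocytes, whose values chose the genes.

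**Figure D1:**
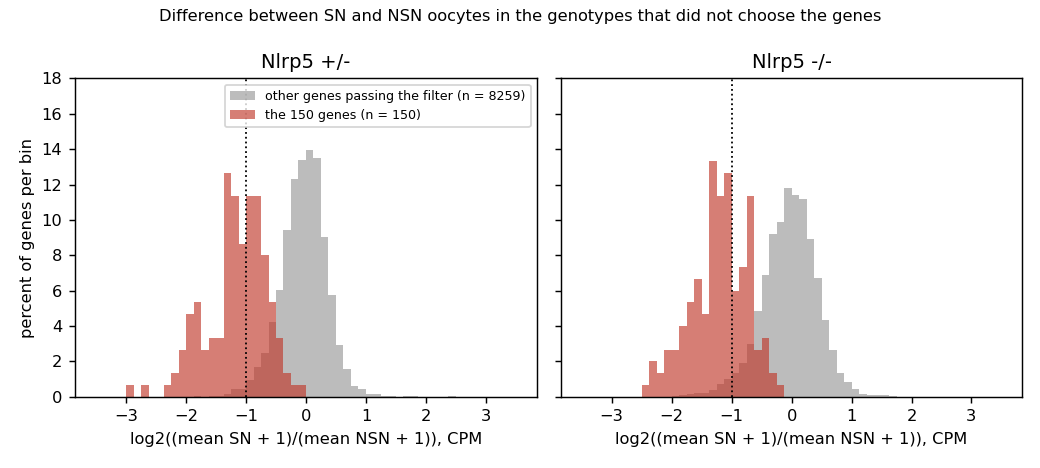
Histograms of the log2 of mean SN over mean NSN level (CPM, 1 added to each mean) in +/- and -/- oocytes. Red bars are the 150 genes, grey bars the other genes that passed the filter, the y axis is the percent of each set per bin, and the dotted line marks 2-fold lower. The 150 genes centre on -1.10 in +/- and -1.18 in -/- oocytes, and none lies above 0.

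The summed level of the 150 genes was higher on average in NSN than in SN oocytes of each genotype. Against the ranges of the +/+ oocytes, 6 of the 16 +/- and 3 of the 7 -/- oocytes, among them the unstaged oocyte 15, fell between the stages. The 4 NSN and 6 SN +/+ oocytes stood at 7343 ± 1882 CPM (SD, n = 4) and 1968 ± 506 CPM (SD, n = 6), where the set took 0.734% and 0.197% of all counts. The 9 NSN +/- oocytes stood at 6081 ± 1274 CPM (SD, n = 9; lowest 3672, median 6169, highest 7758). The 7 SN +/- oocytes stood at 2699 ± 1172 CPM (SD, n = 7; lowest 1433, median 2449, highest 4915). The NSN -/- oocytes 13, 14, 29 and 30 held 5985, 8502, 5328 and 6711 CPM, and the SN -/- oocytes 7 and 31 held 2513 and 3500 CPM.
The stages did not overlap in +/+ and -/- oocytes. They overlapped in +/- oocytes through oocyte 61, an NSN oocyte with the lowest sum, and oocyte 55, an SN oocyte with the highest. Oocyte 55 was the highest of the 7 SN oocytes for 90 of the 150 genes (26.3% of the 8409), and oocyte 61 was the lowest of the 9 NSN oocytes for 73 (21.04% of the 8409). Both also stood between the stage clusters of the study's heatmap and were left out for that reason in 1 alternative. Stage and set both rest on expression, so a wider difference without them is built in and is given as a value only. Without both, the median log2 in +/- oocytes was -1.36, 120 genes were lower by at least 2-fold, against a background of 3.23%, and all SN oocytes were below all NSN oocytes for 62 genes, against a background of 2.39%.
Oocyte 15, which the study left unstaged, held 5262 CPM, between the lowest NSN and the highest SN oocyte of the +/+ genotype. It was above all SN +/+ oocytes for 96 of the 150 genes (28.8% of the 8409) and below all NSN +/+ oocytes for 91 (35.8% of the 8409), in both cases measured against the oocytes that chose the genes.

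**Figure D2:**
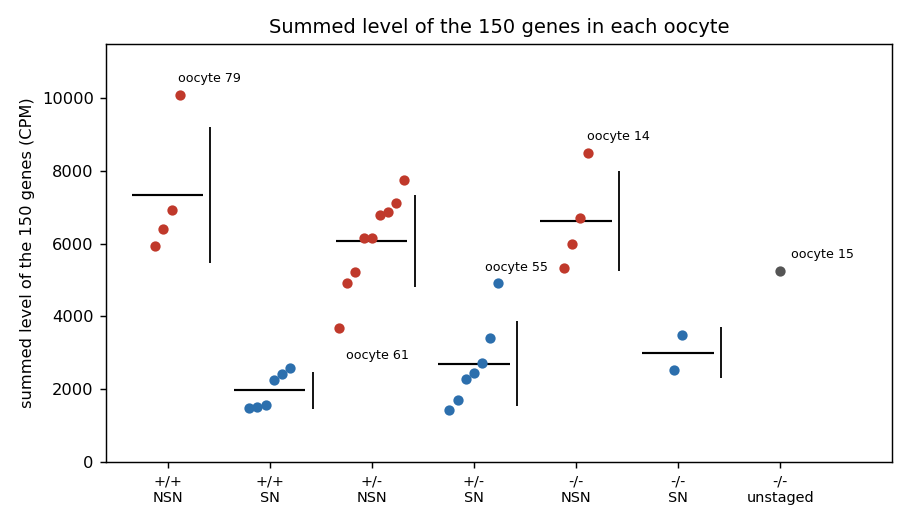
Summed level of the 150 genes (y axis, CPM) in each of the 33 oocytes, grouped by genotype and stage. Points are oocytes (red NSN, blue SN, grey unstaged), horizontal bars are means and vertical bars are ± 1 SD over oocytes. All SN oocytes are at or below 4915 CPM and all NSN oocytes at or above 3672 CPM, and oocytes 55 and 61 are the pair that overlaps.

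The order of the genes within the set was kept in part. Across the 150 genes, the stage difference in +/+ oocytes and that in +/- oocytes had a Pearson correlation of 0.643 (Spearman 0.612), and the +/- and -/- differences, which share no oocyte, had 0.484 (Spearman 0.520). The +/+ differences chose the genes, so only the +/- and -/- pair is free of the choice. These are descriptions across genes of the same libraries. Of the 150, 77 were also among the 150 lowest of the 8409 genes in +/- oocytes and 65 among the 150 lowest in -/- oocytes. At least 2-fold lower in both were 73 genes (1.28% of the 8409), and in neither 35 (95.1% of the 8409).
Transcript length moved with this order. In +/- oocytes the median log2 was -1.37 for the 50 genes with the shortest transcripts (up to 4417 nt), -1.13 for the middle 50 and -0.88 for the 50 longest (from 6369 nt). In -/- oocytes the 3 medians were -1.34, -1.09 and -1.09. Over all genes from which the set was chosen, the fifth with the longest transcripts had a median of -0.23 in +/+, 0.07 in +/- and -0.12 in -/- oocytes, and the fifth with the shortest had 0.10, -0.14 and 0.17. Within the set the 50 genes with the shortest transcripts were the lowest in +/- and -/- oocytes. In +/+ oocytes, whose values chose the genes, the medians were -1.81, -1.74 and -1.67 from short to long. Over all genes, by contrast, the trend had opposite signs in +/- and in the other 2 genotypes. Its part in the difference of the set was not tested.

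**Figure D3:**
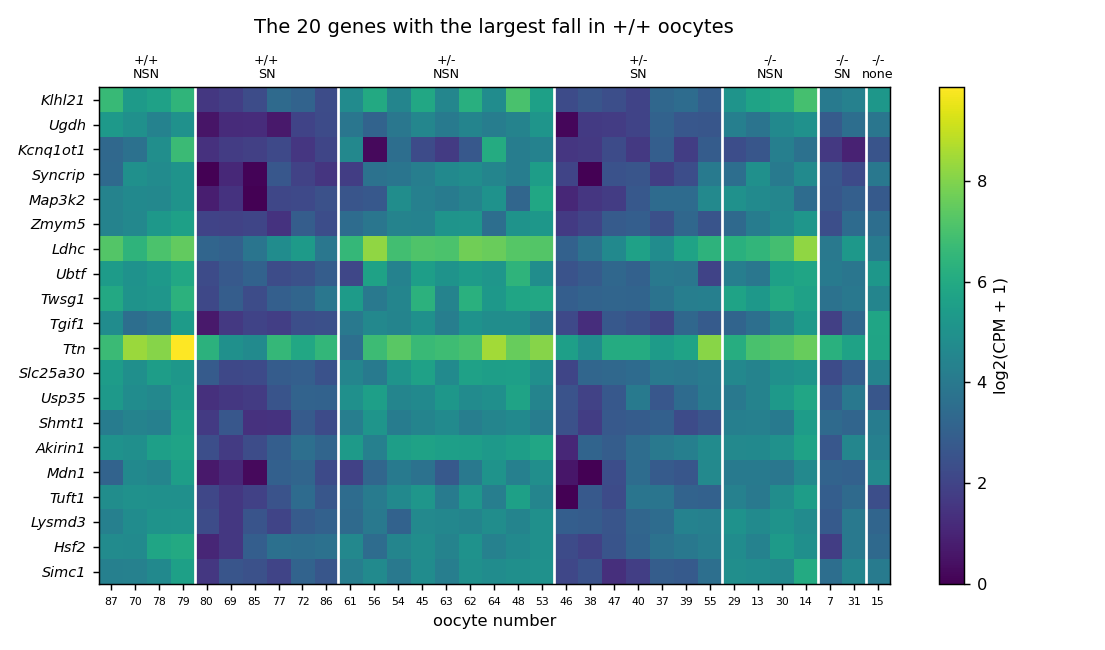
Level, as log2(CPM + 1), of the 20 genes with the lowest +/+ difference (rows) in 33 oocytes (columns, labelled by number, sorted by summed level of the set within genotype and stage). Most rows are darker in SN than in NSN columns of each genotype. NSN +/- oocyte 61 is dark for Ubtf, Syncrip and Mdn1, SN +/- oocyte 55 is bright for Map3k2 and Mdn1, and Ttn is bright in NSN +/+ oocyte 79 and SN +/- oocyte 55.

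Klhl21 had the widest gap of the set in +/+ and +/- oocytes. It was at 40.8, 49.3, 86.5 and 100.1 CPM in NSN +/+ oocytes 70, 78, 79 and 87, and at 2.06 to 9.54 CPM (median 3.91) in the 6 SN oocytes. In +/- oocytes it was at 21.4 to 131 CPM (median 47.9) in NSN and 2.97 to 10.1 CPM (median 5.05) in SN, a log2 of -2.93. In NSN -/- oocytes 13, 14, 29 and 30 it was at 51.8, 122, 33.7 and 62.5 CPM, and in SN oocytes 7 and 31 at 15.5 and 19.4 CPM, a log2 of -1.89.
The stages did not overlap in any genotype, and both SN -/- oocytes were above all SN oocytes of the other genotypes.

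Ugdh makes UDP-glucuronic acid, a precursor of hyaluronan and other matrix sugars. It was at 30.2, 19.7, 30.4 and 38.2 CPM in NSN +/+ oocytes 70, 78, 79 and 87, and at 0.490 to 3.77 CPM (median 1.37) in SN. In +/- oocytes it was at 7.74 to 34.1 CPM (median 16.9) in NSN and 0.127 to 7.55 CPM (median 2.97) in SN, a log2 of -2.04. The 4 NSN -/- oocytes held 13.02, 30.6, 18.2 and 24.8 CPM and the 2 SN oocytes 6.09 and 10.8 CPM, a log2 of -1.26 (-0.94 without oocyte 7). NSN and SN oocytes were separate in each genotype.

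The lists of transcription factors and of ubiquitin genes, drawn up by symbol, each gave 9 members, more than any other family listed. Of 134 genes of named transcription factor families that passed the filter, 9 were in the set (6.72%, against 1.78% of all): Id3, Nr1d2, Zbtb43, Smad5, Zbtb34, Sox15, Zbtb1, Sp1 and Sp3. Over all 134 genes, 6 were lower by at least 2-fold in SN +/- oocytes and 7 in SN -/- oocytes, with none higher, which is 4.48% and 5.22% of them against 2.2% and 3.95% of the 8409, and the family medians were 0.01 and -0.04. Id3, an inhibitor of basic helix-loop-helix factors that responds to BMP signals, was at 32.1 to 97.2 CPM (median 66.6) in NSN +/- and 7.77 to 21.1 CPM (median 13.9) in SN +/- oocytes, a log2 of -2.25. In -/- oocytes it was at 45.7, 207, 37.1 and 83.5 CPM in NSN oocytes 13, 14, 29 and 30, and at 16.2 and 27.4 CPM in SN, a log2 of -2.05. Both differences were without overlap. Without oocyte 14 the -/- log2 was -1.31, and Id3 was at 326 CPM in the unstaged oocyte 15, so it was highest in the 2 oocytes with the highest granulosa sums, whose part in the value was not tested.
Sp1, a general activator that binds GC boxes, behaved differently in the +/- oocytes. It was at 14.4 to 42.8 CPM (median 30.6) in NSN and 10.2 to 62.6 CPM (median 20.8) in SN, where oocyte 55 was the highest, and the log2 was -0.25, or -0.74 without oocytes 55 and 61. Among -/- oocytes it was at 26.3, 34.2, 34.7 and 32.1 CPM in NSN and 16.01 and 15.8 CPM in SN, a log2 of -0.96. Among 114 genes of RNA polymerases and general transcription, the set held 4 (3.51%, against 1.78% of all), namely Eloa, Tbpl2, Ell2 and Maf1. Of the 114, 4.39% were at least 2-fold lower in SN +/- oocytes (2.2% of the 8409). In SN -/- oocytes the share was also 4.39%, near the 3.95% of the 8409. Tbpl2, the TATA-binding protein of growing oocytes, had a mean of 40.5 ± 13.8 CPM in NSN and 14.9 ± 5.30 CPM in SN +/- oocytes (SD, n = 9 and 7), a log2 of -1.38. It was at 21.1, 41.4, 23.3 and 30.3 CPM in NSN -/- and 6.61 and 14.3 CPM in SN -/- oocytes, a log2 of -1.39, with no overlap (-0.97 without oocyte 7). Ubtf, which drives transcription of ribosomal RNA genes by RNA polymerase I, was the only member among 64 genes of ribosome biogenesis. Its log2 was -2.04 in +/- and -1.14 in -/- oocytes, the latter being -0.82 without oocyte 14.
Of 110 chromatin modifiers the set held Sirt1, a deacetylase, Chd9, a remodeller, and Kdm3b, a histone demethylase (2.73%, against 1.78% of all). They were at -0.84, -0.62 and -0.59 in +/- oocytes. Without oocytes 55 and 61 they were at -1.49, -0.98 and -0.87, and Sirt1 was at -0.53 without oocyte 53. In -/- oocytes they were at -0.79, -0.74 and -0.49, with Sirt1 at -0.13 without oocyte 7 and Kdm3b at -0.16 without oocyte 14. The family median was 0.06 in +/- oocytes. Of the family, 0.909% were at least 2-fold lower in SN +/- oocytes (2.2% of the 8409) and 2.73% in SN -/- oocytes (3.95% of the 8409). H2az1, a histone variant, was the member among 14 histone genes, at -1.32 in +/- and -0.73 in -/- oocytes, the latter being -0.28 without oocyte 14. It and other members with near-identical copies in the genome (Cct4, Pabpc1, Tex19.2) can have shared reads with those copies.

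Chaperones and ubiquitin enzymes act in the folding and degradation of proteins. Of 86 chaperones, 3 were in the set (3.49%), and 4 of the 86 were at least 2-fold lower in SN +/- (4.65%, against 2.2% of the 8409) and 3 in SN -/- oocytes (3.49%, against 3.95%). Hsph1, a cochaperone of the HSP70 system, had the highest mean CPM of the set over the 4 NSN +/+ oocytes, at 388, 371, 522 and 416 CPM, and 121 to 209.9 CPM (median 145) in SN. It was at 184 to 483 CPM (median 373) in NSN +/- and 99.0 to 315 CPM (median 193) in SN +/- oocytes, a log2 of -0.88, with overlap (-1.03 without oocyte 55). The -/- oocytes had it at 501, 577, 545 and 666 CPM in NSN and at 361 and 375 CPM in SN, a log2 of -0.64, without overlap.
Cct4 and Cct6a are subunits of the chaperonin that folds actin and tubulin. Their log2 was -1.36 and -1.87 in +/- and -1.06 and -1.13 in -/- oocytes, and Cct6a had no overlap between stages in either genotype. The -/- values were under 2-fold without single oocytes, with -0.72 for Cct4 without oocyte 7 and -0.79 for Cct6a without oocyte 14. Of 258 genes listed by symbol under ubiquitin addition and removal the set held 9 (3.49%): Usp35, Uspl1, Rnf6, Otud7b, Trim30a, Fbxl18, Rnf182, Senp2 and Trim23. Among these, Uspl1 and Senp2 act on SUMO rather than on ubiquitin. Of the 258, 7 were at least 2-fold lower in SN +/- (2.71%, near the 2.2% of the 8409) and 15 in SN -/- oocytes (5.81%, against 3.95%). Usp35, a deubiquitinase, was at -1.78 in +/- and -1.52 in -/- oocytes.

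Of a list of 80 oocyte-specific genes and genes of the subcortical maternal complex, 1 was in the set, Patl2 (1.25%, against 1.78% of all). Ddx6, Ddx4, Piwil2 and Syncrip also act on RNA and were not on that list. Ddx6 and Patl2 belong to the machinery that represses and stores maternal messages. Ddx6 was at 48.1 to 153 CPM (median 78.8) in NSN and 15.4 to 83.7 CPM (median 27.5) in SN +/- oocytes, a log2 of -1.31. Its -/- level was 96.3, 144, 63.7 and 113 CPM in NSN and 32.2 and 31.9 CPM in SN, a log2 of -1.67. Patl2 did not overlap between stages in +/- oocytes, at 74.1 to 224 CPM (median 128) in NSN and 42.9 to 69.1 CPM (median 56.9) in SN. Its log2 was -1.34 in +/- and -0.84 in -/- oocytes.
Ddx4, the vasa helicase that marks germ cells, was in the set although it also stands in the list of oocyte markers. It was at 113, 138, 235 and 89.1 CPM in NSN +/+ and 19.8 to 66.9 CPM (median 41.5) in SN +/+ oocytes, at 47.7 to 165 CPM (median 133) in NSN +/- and 15.2 to 80.8 CPM (median 49.8) in SN +/- oocytes, and at 79.1, 144, 114 and 114 CPM in NSN -/- and 26.4 and 47.9 CPM in SN -/- oocytes. The log2 was -1.33 in +/- and -1.57 in -/- oocytes, and it was counted in all 33 oocytes. Piwil2, which acts in the piRNA pathway against transposons, was at -1.59 in +/- and -1.30 in -/- oocytes, the latter being -0.80 without oocyte 14. Syncrip, an RNA-binding protein, was at -1.83 and -1.96. Of 53 translation initiation and elongation factors and 75 mitochondrial ribosomal proteins 0 were in the set, which with 1.78% of all genes in it is near the background, and the family medians in +/- oocytes were -0.11 and -0.21.

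Among metabolic genes, Ldhc, the lactate dehydrogenase of germ cells, was the member of an 11-gene list of glycolysis. It was at 83.2, 133, 179 and 146.8 CPM in NSN +/+ oocytes 70, 78, 79 and 87 and at 7.39 to 40.6 CPM (median 13.5) in SN. In +/- oocytes it was at 94.8 to 299 CPM (median 146.7) in NSN and 7.39 to 82.7 CPM (median 26.9) in SN, a log2 of -2.15. In -/- oocytes it was at 88.0, 299, 76.1 and 121 CPM in NSN and 14.8 and 36.8 CPM in SN, a log2 of -2.46, which was -1.84 without oocyte 14 and -3.22 without oocyte 31. NSN and SN oocytes did not overlap in any genotype, and Ldhc is also a published staging marker.
Uqcrc1, a core subunit of complex III, was the only member among 80 genes of the respiratory chain and ATP synthase. Its log2 was -1.98 in +/- and -1.30 in -/- oocytes, where the family medians were -0.17 and 0.41. Without -/- oocyte 14, in which granulosa and stroma markers were raised, it was at -0.65. Tomm20, the receptor of mitochondrial protein import, was at -1.76 and -1.35 (-0.97 without oocyte 14). The mitochondrial carriers Slc25a30 and Slc25a36, 2 of 23 such genes, were at -1.60 and -1.13 in +/- and at -2.15 and -1.76 in -/- oocytes. Shmt1, an enzyme of folate-dependent serine and glycine metabolism, was at -1.92 and -1.29 (-0.87 without oocyte 14).

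Signalling and cell cycle genes were spread over the set. Of kinases, cyclins and phosphatases listed by symbol, the set held Map3k2, Wee1, Pak2, Mapk11 and Ccne2 (3.29%, against 1.78% of all). Map3k2, Pak2 and Mapk11 are signalling kinases, so the shares of this list do not describe cell cycle genes alone. Of the list, 3.29% were at least 2-fold lower in SN +/- oocytes (2.2% of the 8409) and 8.55% in SN -/- oocytes (3.95% of the 8409). Wee1, the kinase that holds CDK1 inactive, was at 62.7 ± 20.4 CPM in NSN and 26.7 ± 14.8 CPM in SN +/- oocytes (SD, n = 9 and 7), a log2 of -1.20. It was at 53.5, 63.2, 61.6 and 52.9 CPM in NSN -/- and 10.3 and 20.8 CPM in SN -/- oocytes, a log2 of -1.83. Ccne2, a cyclin of entry into S phase, was at -0.86 (-0.45 without oocyte 53, -1.05 without oocyte 55) and -1.09 (-0.62 without oocyte 7). Twsg1 and Tgif1, modulators of BMP and TGF-beta signals, were at -1.904 and -2.08 in +/- and -1.83 and -1.63 in -/- oocytes, and the receptor Tgfbr1 was at -0.82 (-1.13 without oocyte 55) and -0.73 (-0.12 without oocyte 7, -1.82 without oocyte 31). The -/- value of Tgif1 was -1.08 without oocyte 7. C1d, a cofactor of the nuclear RNA exosome, was at 19.5 to 53.6 CPM (median 25.8) in NSN and 0.765 to 8.71 CPM (median 2.23) in SN +/- oocytes, a log2 of -2.69. Among -/- oocytes it was at 10.7, 25.8, 16.1 and 10.8 CPM in NSN and 6.61 and 9.32 CPM in SN, a log2 of -0.91 (-0.59 without oocyte 14). The stages were separate in both genotypes.

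Some members had a small stage difference in +/- oocytes. The 5 with the smallest difference were Hipk3 (-0.09), Sp1 (-0.25), Slc5a3 (-0.30), Ugcg (-0.36) and Pikfyve (-0.42). Without oocytes 55 and 61, which stood between the stages, they were at -0.30, -0.74, -0.77, -0.64 and -0.88. Hipk3, a kinase of transcription regulators, was at 3.47 to 24.8 CPM (median 10.7) in NSN and 6.88 to 15.7 CPM (median 10.3) in SN +/- oocytes, whereas it was at 26.3, 42.2, 13.7 and 20.8 CPM in NSN and 10.6 and 19.6 CPM in SN -/- oocytes, a log2 of -0.73 (-0.38 without oocyte 7). The stages overlapped in both genotypes.
Ttn encodes the giant muscle protein titin and has the longest transcript of the set, with 107543 nt. It was at 333, 269.8, 926 and 104 CPM in NSN +/+ oocytes 70, 78, 79 and 87 and 25.1 to 94.4 CPM (median 69.6) in SN. In +/- oocytes it ran from 11.1 CPM in NSN oocyte 61 to 355 CPM (median 125) and from 26.9 to 275 CPM in SN (median 51.4), where oocyte 55 was the highest. The log2 was -0.94, and -1.81 without oocytes 55 and 61. The -/- oocytes had it at 130.4, 186, 69.4 and 146.3 CPM in NSN and 75.2 and 49.8 CPM in SN, a log2 of -1.08 (-0.82 without oocyte 31).

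**Figure D4:**
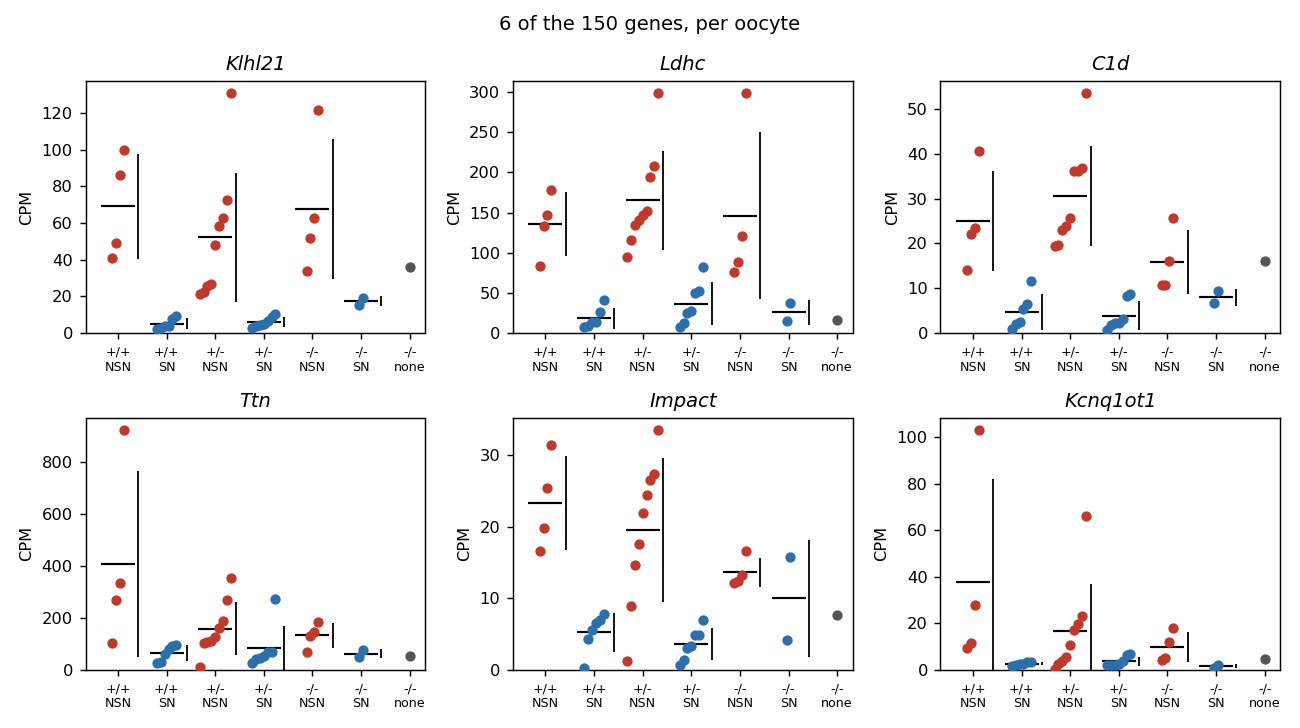
Level (y axis, CPM, a separate scale for each gene) of Klhl21, Ldhc, C1d, Ttn, Impact and Kcnq1ot1 in each oocyte. Points are oocytes (red NSN, blue SN, grey unstaged), horizontal bars are means and vertical bars ± 1 SD over oocytes. Klhl21 and Ldhc separate the stages in each genotype, whereas 1 oocyte stands far above the rest for Ttn in NSN +/+ and SN +/- and for Kcnq1ot1 in NSN +/+ and NSN +/-.

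Imprinted genes that are expressed from the paternal allele in the embryo were among the members, namely Kcnq1ot1, Peg3 and Impact. These were singled out after their values were seen, with no list of imprinted genes to give a share. These genes therefore do not describe imprinted genes as a class. Each has a control region that the oocyte methylates, and in the oocyte itself transcription across such regions precedes methylation. Kcnq1ot1, a long non-coding RNA antisense to Kcnq1, was at 11.7, 28.1, 103 and 9.14 CPM in NSN +/+ oocytes 70, 78, 79 and 87 and 1.67 to 3.503 CPM (median 2.51) in SN. In +/- oocytes it ran from 0.198 CPM to 66.1 CPM (median 10.6) in NSN, where oocyte 64 was the highest, and from 1.91 to 6.73 CPM (median 2.43) in SN. The log2 was -1.92, and -1.29 without oocyte 64. Its -/- level was 5.21, 11.7, 4.08 and 17.96 CPM in NSN and 2.09 and 0.941 CPM in SN, a log2 of -2.09. The libraries do not mark strand, so reads of Kcnq1ot1 and of Kcnq1 cannot be told apart.
Peg3, a zinc finger factor, was at 62.9 ± 51.5 CPM in NSN and 33.0 ± 27.9 CPM in SN +/- oocytes (SD, n = 9 and 7), a log2 of -0.91, which was -0.56 without oocyte 64 and -1.57 without oocytes 55 and 61. It was at 64.4, 50.8, 42.2 and 57.4 CPM in NSN -/- and 17.2 and 27.2 CPM in SN -/- oocytes, a log2 of -1.24 (-0.96 without oocyte 7). Impact, a regulator of the GCN2 translation response, was at 1.22 to 33.6 CPM (median 21.9) in NSN and 0.698 to 7.02 CPM (median 3.31) in SN +/- oocytes, a log2 of -2.17. In -/- oocytes it was at 13.3, 12.2, 12.4 and 16.6 CPM in NSN and 4.18 and 15.8 CPM in SN, a log2 of -0.41, which turned to 0.20 without oocyte 7. The SN value of oocyte 31 was within the range of the NSN -/- oocytes, and SN oocyte 7 was below it.

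Between -/- and +/- oocytes of the same stage, the set as a whole was at nearly the same level. Neither genotype had chosen the genes. In NSN oocytes the median log2 of -/- over +/- was 0.13, against 0.01 over the 8409 genes, and 100 of the 150 were higher in -/- (51.3% of the 8409). In SN oocytes it was 0.11 against 0.02, and 90 were higher (52% of the 8409). Single oocytes decided the sign, since the NSN median was -0.03 without -/- oocyte 14, and the SN median was -0.25 without -/- oocyte 31, -0.02 without +/- oocyte 46 and 0.35 without -/- oocyte 7. The spread between oocytes within a group was wider, with an SD of the mean log2 level over the set of 0.40 in NSN +/- and 0.54 in SN +/- oocytes.
At least 2-fold lower in NSN -/- oocytes was 1 of the 150 (background 1.01%), and 2 were higher (0.44%). In SN oocytes 5 were lower (2.03%) and 6 were higher (0.702%). Of these 14 calls, 3 held on leaving out any single oocyte, namely Itgb4 at both stages and Klhl21 in SN. All 4 NSN -/- oocytes were above all 9 NSN +/- oocytes for 2 genes (0.464% of the 8409) and below them for none (0.69%). Both SN -/- oocytes were above all 7 SN +/- oocytes for 10 genes (5.96%) and below them for none (5.76%).

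**Figure D5:**
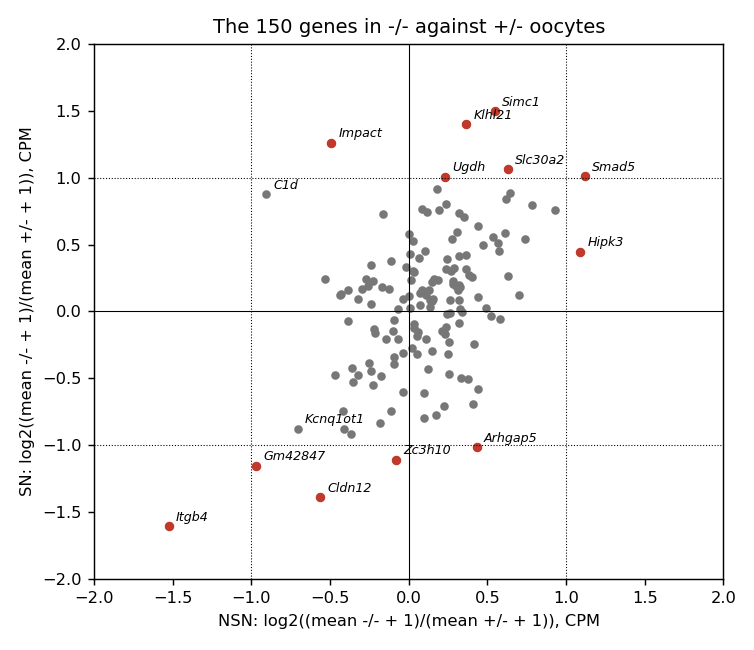
For each of the 150 genes, the log2 of mean -/- over mean +/- level (CPM, 1 added to each mean) in NSN (x axis) and SN oocytes (y axis). Points are genes, dotted lines mark 2-fold, and red points are past 2-fold in a stage. Most points lie near the centre, Itgb4 is at -1.52 and -1.61, and Smad5 is at 1.12 and 1.01.

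Hsph1 and Smad5 were the members whose 4 NSN -/- oocytes were all above the +/- oocytes. Hsph1 was at 501 to 666 CPM in NSN -/- against 184 to 483 CPM in NSN +/- oocytes, a log2 of 0.64, and at 361 and 375 CPM in SN -/- against 99.0 to 315 CPM in SN +/- oocytes, a log2 of 0.89. It was the only gene of the set without overlap at both stages, where 0.107% of the 8409 genes had such a pattern. Smad5, which carries BMP signals to the nucleus, was at 26.98, 34.6, 23.5 and 21.5 CPM in NSN -/- and 1.39 to 19.4 CPM (median 12.03) in NSN +/- oocytes. In SN oocytes it was at 11.1 and 19.95 CPM in -/- and 2.82 to 11.6 CPM (median 6.73) in +/-, with overlap.
The higher members in SN -/- oocytes were led by Simc1, a SUMO-interacting protein, at 10.8 and 21.4 CPM against 1.503 to 10.99 CPM (median 4.53) in SN +/- oocytes, a log2 of 1.499. Klhl21 followed with a log2 of 1.40 and Impact with 1.26. Without oocyte 31, Simc1 was at 0.96, Impact at 0.17, Ugdh at 0.59 (1.01 with it) and Smad5 at 0.57 (1.01 with it). Slc30a2, a zinc transporter, was at 32.5 and 27.01 CPM in SN -/- and 6.98 to 19.03 CPM (median 13.5) in SN +/- oocytes, a log2 of 1.06 (0.93 without oocyte 7), without overlap. In NSN oocytes it was at 40.9, 85.1, 42.4 and 62.9 CPM in -/- and 17.7 to 84.5 CPM (median 26.9) in +/-, a log2 of 0.63 (0.39 without oocyte 14). Cct6a, at 0.92 in SN, also had no overlap there. Of the NSN values, several rested on oocyte 14, in which the granulosa list was raised. Pabpc1, a poly(A)-binding protein, was at 120.2 CPM in oocyte 14 and 37.4, 19.6 and 19.01 CPM in the other 3, against a median of 26.4 CPM in NSN +/- oocytes, and its log2 went from 0.78 to -0.14 without oocyte 14. Abtb2 went from 0.93 to 0.65, Tex19.2 from 0.74 to 0.44, and Hipk3 went from 1.09 to 0.76.
The lower members were few. In SN oocytes they were Itgb4, Cldn12, Gm42847, Zc3h10 (-1.11) and Arhgap5 (-1.01), of which Itgb4, Zc3h10 and Arhgap5 were picked out after their values were seen. Without +/- oocyte 55, Gm42847 was at -0.67, Zc3h10 at -0.91 and Arhgap5 at -0.57, and Cldn12 was at -0.92 without -/- oocyte 7. Itgb4, an integrin subunit of epithelial cells, was at 0.473, 3.20, 2.24 and 0.613 CPM in NSN -/- and 0 to 11.8 CPM (median 7.48) in NSN +/- oocytes, a log2 of -1.52. It was at 1.04 and 0 CPM in SN -/- and 0.301 to 10.8 CPM (median 1.93) in SN +/- oocytes, a log2 of -1.61. Both its groups were under 10 CPM on average. The predicted gene Gm42847 was at 53.7, 27.6, 52.2 and 33.4 CPM in NSN -/- and 25.9 to 178 CPM (median 63.3) in NSN +/- oocytes, a log2 of -0.97, and at -1.15 in SN. Cldn12, a claudin of cell junctions, was at -0.56 in NSN and -1.39 in SN. C1d was at -0.90 in NSN and 0.87 in SN, and Kcnq1ot1 at -0.71 and -0.88, the former being -0.08 without +/- oocyte 64. Among the other members with a low value at a stage was Vav3 (-0.53 in NSN, with -0.25 without -/- oocyte 14 and -1.07 without -/- oocyte 13). Others, in SN, were Slc25a30 (-0.92), Spcs3 (-0.83, with -0.07 without -/- oocyte 7 and -2.56 without -/- oocyte 31), Malat1 (-0.80) and Slc12a2 (-0.77). The last 2 moved to -0.13 and -0.30 without +/- oocyte 55.

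As a comparison of the same kind, the 150 genes with the highest log2 in +/+ oocytes were taken by the same rule. Their median log2 was 1.06 in +/+, 0.62 in +/- and 0.61 in -/- oocytes.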

How the data were processed

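Single oocytes were profiled by separating polyadenylated RNA from DNA of the same cell, amplifying the RNA and sequencing Nextera XT libraries, which do not mark strand. The authors deposited whole-number read counts per gene, with 1 column per oocyte. The labels name Trim Galore, HISAT2 and the build GRCm38, and the authors left out shallow libraries. Tool versions are not given in the sources used here. Deposited tables that hold only the fold changes and p-values of the authors' own comparisons, and a table of read totals, were not used.

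Of 35373 entries, 52 repeated ones were left out. Counts were divided by the summed counts of the oocyte and expressed as CPM, and stage differences are log2((mean SN + 1)/(mean NSN + 1)), which understates the change of low genes. Values came from pandas 2.3.3 and numpy 2.4.6 under Python 3.11.15, with plots from matplotlib 3.10.9, and the calculation was tested on simulated counts. A count model such as a quasi-likelihood test was not fitted, because the labels name no mouse and a group is then 1 sample.

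The members and lists were chosen with earlier results of these data known. The genes named were the 20 lowest in +/+ oocytes, the 10 highest in NSN +/+ oocytes, the 5 lowest and 5 highest in +/- oocytes, the 5 lowest and 5 highest in -/- against +/- oocytes at each stage among those with at least 10 CPM, members of gene families, and the genes at the border of the set. Arhgap5, Zc3h10, Piwil2, Peg3, Tgfbr1 and Itgb4 fall outside this rule and were picked after their values were seen. Transcript lengths are from GENCODE vM39 by gene identifier, and no coordinate of that build is printed. Alternatives varied the scaling, the pseudocount, the average, the filter, the members and the oocytes.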

Additional observations from a re-analysis of the deposited data

Results flagged for a closer look

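Among 245 groups of 4 to 9 oocytes, 28 values of the named genes lay far from the rest of their group by Dixon's criterion. Its nominal rate of about 1 in 20 groups assumes normal values and separate groups, whereas these were CPM of the same oocytes. The +/+ values among them also chose the genes. SN +/- oocyte 55 gave 11 of the 28, all high. Its levels were 15.2 CPM for Syncrip, 23.9 CPM for Map3k2, 275 CPM for Ttn, 23.9 CPM for Mdn1, 177 CPM for Chd9, 127 CPM for Pikfyve, 43.1 CPM for Slc5a3, 62.6 CPM for Sp1, 24.2 CPM for Vav3, 93.1 CPM for Malat1 and 63.5 CPM for Slc12a2. This oocyte also had the highest summed level of the set among SN oocytes.

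Among NSN +/- oocytes, oocyte 48 stood high for Klhl21 (131 CPM) and Abtb2 (60.6 CPM), and oocyte 53 for Map3k2 (58.0 CPM), Chd9 (204 CPM) and Slc12a2 (85.9 CPM). Oocyte 64 stood high for Kcnq1ot1 (66.1 CPM) and oocyte 56 for Shmt1 (34.5 CPM). Oocyte 56 stood low for Akirin1 (18.6 CPM) and oocyte 61 for Tspan3 (114 CPM). SN +/- oocyte 37 stood apart for Abtb2 (17.2 CPM).

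In NSN -/- oocytes, oocyte 14 stood high for Shmt1 (42.4 CPM), Mdn1 (23.6 CPM) and Simc1 (64.8 CPM). In NSN +/+ oocytes, oocyte 79 stood apart for Shmt1 (47.3 CPM) and Fam98a (177 CPM). In SN +/+ oocytes, oocyte 72 stood apart for Malat1 (58.1 CPM) and oocyte 86 for Slc12a2 (27.1 CPM).

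For 3 named genes the oocytes of -/- lay on opposite sides of the +/- mean at the 2 stages, and the difference was not tested. The log2 of -/- over +/- in SN minus that in NSN was 1.78 for C1d, 1.75 for Impact and -0.83 for Slc5a3. Single oocytes bore on these, since the SN value of -/- over +/- went from 0.87 to 0.64 for C1d and from 1.26 to 0.17 for Impact without -/- oocyte 31, and from -0.50 to -0.16 for Slc5a3 without +/- oocyte 55.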

How the results depend on the processing

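Of 134 recomputed values of the 7 summary results, 129 stayed within the spread between oocytes or within 1.5 times the count, and the sign turned in some of the comparisons of -/- with +/- oocytes. Of 532 values of named genes, 516 moved by less than 1 SD and 16 by more. Among these 532, 3 took the other sign with 1 oocyte left out: Hipk3 in +/- oocytes (from -0.09 to 0.12), Impact in -/- oocytes (from -0.41 to 0.20) and Pabpc1 in NSN -/- against +/- oocytes (from 0.78 to -0.14). Outside these, other values also changed sign, such as Klhl21 (from 0.37 to -0.08) and Id3 (from 0.44 to -0.30) in NSN -/- against +/- oocytes without oocyte 14, and Vav3 in -/- oocytes (from -0.72 to 0.03 without oocyte 7). With a pseudocount of 5, 57 members were at least 2-fold lower in SN +/- oocytes (1.19% of the 8409 genes). Only 4 members had a mean of at least 100 CPM over +/+ oocytes, of which 1 was at least 2-fold lower in +/- and 2 in -/- oocytes. With no filter on low values, 50 of the 150 members were chosen again. These follow from the construction of the alternatives.

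On leaving out single oocytes, the median log2 ran from -1.28 (without 55) to -0.996 (without 46) in +/- and from -1.53 (without 31) to -0.95 (without 7) in -/- oocytes, and the members at least 2-fold lower ran from 74 to 112 and from 69 to 117. The median of -/- over +/- ran from -0.03 to 0.21 in NSN and from -0.25 to 0.35 in SN oocytes. From 113 to 137 members were chosen again when a +/+ oocyte was left out. Chosen after seeing the data were 2 further alternatives. With the 113 members chosen again without oocyte 79, the medians were -1.12 in +/- and -1.18 in -/- oocytes, with 67 and 76 members at least 2-fold lower (2.2% and 3.95% of the 8409, whose calls this does not change). Without -/- oocytes 13 and 14, in which granulosa markers were raised, the -/- median was -0.98 with 72 members at least 2-fold lower (3.58% of the 8409), and the NSN median of -/- over +/- was -0.04.

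No paired analysis was possible because the labels give no number that pairs oocytes across groups. With 2 SN -/- oocytes and no named mice no test of genotype was made, and the assigned stage rests on expression.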
